A study of Homo sapiens with 91 samples.

Results

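The 29 genes described here encode subunits of RNA polymerases I, II and III, and were followed in 3 human cancer cell lines treated with a degrader or an inhibitor of the kinase CDK9. They were found by matching each Ensembl identifier, without its version, to 29 listed symbols among the 62710 genes of the deposited tables. All 29 were matched and all 29 had enough counts to be tested in every line. By enzyme, 6 belong to Pol I only (POLR1A, POLR1B, POLR1E, POLR1F, POLR1G and POLR1H), 2 are shared by Pol I and III (POLR1C and POLR1D), 7 belong to Pol II only (POLR2A, POLR2B, POLR2C, POLR2D, POLR2G, POLR2I and POLR2J), 5 are shared by all 3 enzymes (POLR2E, POLR2F, POLR2H, POLR2K and POLR2L), and 9 belong to Pol III only (POLR3A to POLR3G, POLR3GL and POLR3K). Pol I makes the large ribosomal RNA precursor, Pol II makes messenger RNAs, and Pol III makes transfer RNAs, 5S ribosomal RNA and other small RNAs. Each enzyme has a pair of large subunits that form the active centre, surrounded by smaller subunits, some of them common to several enzymes. CDK9 is the kinase that releases paused Pol II into elongation, in part by phosphorylating the repeated tail of POLR2A. The mRNAs of all 29 subunits, those of Pol I and Pol III included, are made by Pol II.

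RNA was sequenced from 91 libraries in 23 groups, covering MOLT4 (acute lymphoblastic leukemia, 35 libraries), PSN1 (a pancreatic cancer line, 32) and RH4 (rhabdomyosarcoma, 24). Cells received KI-CDK9d-32, a CDK9 degrader, KB-0742, a CDK9 inhibitor, or DMSO as vehicle. MOLT4 has all 3 treatments at 2, 4 and 8 h, PSN1 lacks KB-0742 at 2 h, and RH4 has 4 h and 8 h. Groups hold 4 libraries, except the MOLT4 vehicle at 4 h with 3. The labels give no doses, and the design text names RH1 where each sample label has RH4. Replicates are called biological, but no separate cultures are named, and p-values therefore cover the spread among these libraries only.

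Summed gene counts per library were 1598283 to 3240753 in MOLT4, 1998712 to 3227113 in PSN1 and 1670111 to 3136769 in RH4. Each list of 8 line markers was highest in its own line, although CDH1 stayed below 1 TPM in every PSN1 library, and the PSN1 list summed to a median of 1450 TPM in RH4 against 8730 TPM in PSN1. RH4 markers summed to 21.4 TPM in replicate 4 of PSN1 KI-CDK9d-32 at 2 h and to 24.6 TPM in replicate 4 of PSN1 vehicle at 2 h, where the PSN1 median was 1.33 TPM. PSN1 markers summed to 68.2 TPM in replicate 1 of MOLT4 vehicle at 8 h, where the MOLT4 median was 16.1 TPM. The part of these markers in any result below was not tested.

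An equal amount of spike-in RNA went into each lysate, per the labels, and its share of counts was higher after treatment. At 8 h it averaged 39.9% ± 14.8 with KI-CDK9d-32, 21.5% ± 2.59 with KB-0742 and 14.5% ± 1.91 with vehicle in MOLT4 (SD, n = 4 each). In PSN1 it was 17.3% ± 2.28 with KI-CDK9d-32, 17.1% ± 3.58 with KB-0742 and 12.6% ± 0.461 with vehicle, and in RH4 12.9% ± 2.03 with KI-CDK9d-32, 15.1% ± 2.22 with KB-0742 and 9.71% ± 2.07 with vehicle (SD, n = 4 each). In these bulk samples, fewer cells and less RNA per cell cannot be told apart. The 3 MOLT4 libraries that stood apart were replicate 3 of KI-CDK9d-32 at 8 h (61.5%), of KB-0742 at 4 h (49.4%) and of KI-CDK9d-32 at 4 h (39.5%).

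Changes are therefore given on 2 scales. The first, called the relative scale, uses TMM scaling and sets each gene against the other genes of its libraries. The second uses spike-in scaling and sets it against the added RNA. The median tested gene moved by −0.41, −1.13 and −2.99 (log2) on the spike-in scale with KI-CDK9d-32 at 2, 4 and 8 h in MOLT4, by −0.29, −0.61 and −1.01 in PSN1, and by −0.36 and −0.92 at 4 and 8 h in RH4. With KB-0742 it moved by −0.86, −1.38 and −1.41 at 2, 4 and 8 h in MOLT4, by −0.92 and −0.95 at 4 and 8 h in PSN1, and by −1.12 and −1.66 at 4 and 8 h in RH4. Without the 3 MOLT4 libraries, the shift was −2.69 with KI-CDK9d-32 at 8 h, −0.86 with KI-CDK9d-32 at 4 h and −1.04 with KB-0742 at 4 h. Below, "rose" and "fell" refer to the relative scale and to an adjusted p under 0.05 in edgeR's quasi-likelihood test (Benjamini-Hochberg over all genes tested in a comparison), and values are log2 fold changes ± standard error unless named otherwise.

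Transcript levels of the members in vehicle cells spanned a wide range. POLR2I, a small Pol II subunit of the jaw region, ranked first in each line, with median levels of 822 TPM in MOLT4 (726 to 898 over 11 libraries), 591 TPM in PSN1 (355 to 647 over 12) and 767 TPM in RH4 (703 to 812 over 8). POLR2A, the largest Pol II subunit, had medians of 20.5, 16.6 and 19.8 TPM in MOLT4, PSN1 and RH4, and its ranges of 15.9 to 22.5, 9.84 to 18.3 and 16.2 to 23.6 TPM overlapped. The largest Pol I subunit POLR1A had medians of 3.32, 3.24 and 4.69 TPM, and the largest Pol III subunit POLR3A 3.75, 3.87 and 6.97 TPM, in MOLT4, PSN1 and RH4. The median tested gene had a level of 5.2, 4.41 and 5.47 TPM in these lines.

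**Figure D1:**
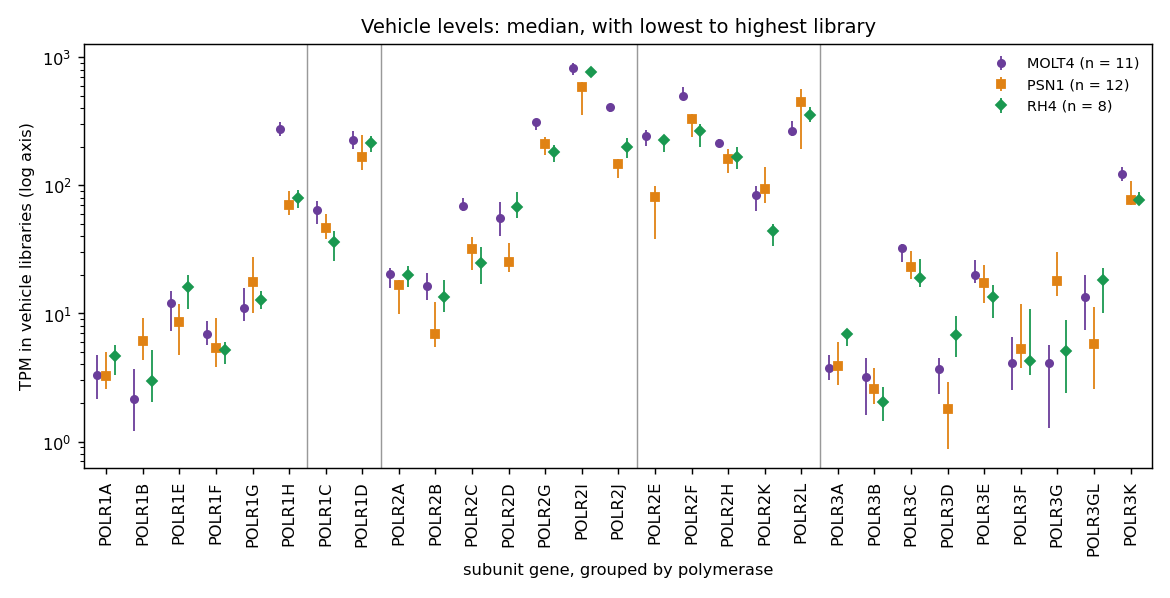
Transcript level of each subunit gene in vehicle libraries, in TPM on a log axis, with 1 marker for each line at the median and a bar from the lowest to the highest library (11 MOLT4, 12 PSN1 and 8 RH4 libraries). POLR2I is highest in each line, and POLR3G and POLR3GL lie in opposite order in PSN1 and in the other lines.

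Lines differed in many subunits before treatment. Relative to the other genes, 13 members were higher and 7 lower in MOLT4 than in PSN1 (26.2% and 35.2% of 15881 tested genes), and 7 were higher and 6 lower on the spike-in scale (18% and 31.1% of genes). MOLT4 against RH4 gave 14 higher and 6 lower (27.1% and 32.4% of genes), and 2 higher and 14 lower on the spike-in scale (10.1% and 46.6%). PSN1 against RH4 gave 16 higher and 8 lower (31.3% and 28.3% of genes), and 2 higher and 12 lower on the spike-in scale (15.2% and 40.7%).

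POLR3G and POLR3GL are the alternative forms of 1 subunit of the Pol III initiation trimer, and POLR3G is known from stem and tumor cells and POLR3GL from differentiated tissue. POLR3G had medians of 4.10 TPM in MOLT4 (1.27 to 5.69), 17.8 TPM in PSN1 (13.6 to 30.1) and 5.05 TPM in RH4 (2.4 to 8.92), so every PSN1 library lay above every library of the other lines. POLR3GL had medians of 13.4 TPM in MOLT4 (7.47 to 20.1), 5.76 TPM in PSN1 (2.56 to 11.3) and 18.4 TPM in RH4 (10 to 22.6), and its ranges overlapped. POLR3G was lower in MOLT4 than in PSN1, at −2.30 ± 0.25 (adjusted p = 1.65e-13), and higher in PSN1 than in RH4 by 2.13 ± 0.24 (adjusted p = 3.28e-13). POLR3GL was higher in MOLT4 than in PSN1 by 1.03 ± 0.23 (adjusted p = 6.11e-05), and lower in PSN1 than in RH4, at −1.16 ± 0.22 (adjusted p = 4.01e-06). These 4 differences kept their sign on the spike-in scale (−2.38, 1.496, 0.95 and −1.80 in the order given). Between MOLT4 and RH4, neither gene differed beyond the test (−0.18 ± 0.27 for POLR3G and −0.13 ± 0.22 for POLR3GL).

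Other baseline differences fell on subunits of each enzyme. POLR1H, a small Pol I subunit that takes part in RNA cleavage, was higher in MOLT4 than in PSN1 by 1.58 ± 0.10 and than in RH4 by 1.79 ± 0.10 (adjusted p = 9.41e-27 and 3.94e-30). POLR2E, a shared subunit, was higher in MOLT4 than in PSN1 by 1.34 ± 0.09 (adjusted p = 5.65e-25), and lower in PSN1 than in RH4, at −1.26 ± 0.09 (adjusted p = 4.25e-24). POLR1B, the second largest Pol I subunit, was lower in MOLT4 than in PSN1, at −1.96 ± 0.21 (adjusted p = 5e-14), and higher in PSN1 than in RH4 by 1.22 ± 0.19 (adjusted p = 3.02e-08). POLR3D, which pairs with POLR3E in Pol III, was lower in MOLT4 (−0.89 ± 0.20) and in PSN1 (−1.61 ± 0.20) than in RH4 (adjusted p = 4.46e-05 and 9.13e-12). POLR2A did not differ beyond the test in any pair of lines (0.09 ± 0.12, 0.03 ± 0.12 and −0.06 ± 0.12 for MOLT4 over PSN1, MOLT4 over RH4 and PSN1 over RH4), and the value for MOLT4 over RH4 was −0.67 on the spike-in scale.

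Treated with KI-CDK9d-32, MOLT4 cells lost transcripts of Pol I and Pol III subunits relative to the other genes and gained those of several small Pol II and shared subunits. At 2 h 1 member rose and 3 fell, beside 4.57% of the 11664 tested genes that rose and 5.41% that fell. At 4 h 6 rose and 15 fell (13.6% and 18.9% of genes), and at 8 h 5 rose and 16 fell (20.8% and 28.7% of genes). On the spike-in scale none were higher and 0, 19 and 29 were lower at 2, 4 and 8 h. Of all tested genes, 0.171%, 0.686% and 0.857% were higher there and 1.65%, 37% and 91% lower. The median member was at −0.11, −0.31 and −0.53 at 2, 4 and 8 h, beside −0.02, −0.11 and −0.18 for all tested genes. An analysis added after seeing the data left out the 3 MOLT4 libraries of high spike-in share. At 4 h 6 members then rose and 8 fell (1719 and 1985 of 11664 genes), where 15 fell with these libraries kept. At 8 h 5 rose and 14 fell (2411 and 3151 genes).

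With KB-0742 in MOLT4, 9 members rose and 6 fell at 2 h (13.2% and 12.9% of genes), 7 rose and 8 fell at 4 h (18.1% and 17.7%), and 15 rose and 6 fell at 8 h (23.4% and 25.8%). On the spike-in scale, none were higher and 7, 19 and 17 were lower at 2, 4 and 8 h. Of all tested genes, 0.12%, 0.446% and 0.609% were higher there and 19.6%, 50.5% and 54.3% lower. The median member was at 0.11, 0.03 and 0.24, beside −0.05, −0.04 and −0.10 for all tested genes. Without the 3 libraries, 6 rose and 9 fell at 4 h (1900 and 2161 of 11664 genes).

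PSN1 and RH4 had fewer calls with KI-CDK9d-32. In PSN1, 0 members rose and 2 fell at 2 h (0.128% and 0.353% of 12471 genes), 1 rose and 2 fell at 4 h (3.62% and 3.74%), and 5 rose and 7 fell at 8 h (11% and 9.61%), with none higher and 0, 9 and 20 lower on the spike-in scale (0.104%, 12.5% and 51.2% of genes lower). In RH4, 3 rose and 1 fell at 4 h (3.47% and 1.89% of 12058 genes), and 5 rose and 2 fell at 8 h (9.19% and 6.05%), with none higher and 0 and 22 lower on the spike-in scale (0.738% and 51.6% of genes lower). KB-0742 in PSN1 gave 7 that rose and 7 that fell at 4 h (11.3% and 12.6% of genes) and 8 that rose and 2 that fell at 8 h (15.1% and 15.1%), with none higher and 16 lower at each time on the spike-in scale (42.3% and 46.8% of genes lower). KB-0742 in RH4 gave 7 that rose and 6 that fell at 4 h (15.4% and 16.3% of genes) and 9 that rose and 8 that fell at 8 h (22.5% and 22.9%), with none higher and 21 and 26 lower on the spike-in scale (61.9% and 77.9% of genes lower).

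The first counts rest in part on single libraries. In MOLT4 with KI-CDK9d-32 at 2 h, where 4 members were called, 1 to 3 were called when 1 library was left out, with 1 called without vehicle replicate 4, and 2 without vehicle replicate 3 or KI-CDK9d-32 replicate 3. In RH4 with KI-CDK9d-32 at 4 h, where 4 members were called, 1 to 4 were called when 1 library was left out, with 1 called without vehicle replicate 1, 2 or 4 or KI-CDK9d-32 replicate 1, and 2 without KI-CDK9d-32 replicate 2, 3 or 4. In PSN1 with KI-CDK9d-32 at 2 h, 1 of 2 was called without vehicle replicate 3 or 4 or without KI-CDK9d-32 replicate 2 or 3. In PSN1 with KB-0742 at 4 h, 8 of 14 were called without KB-0742 replicate 3.

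**Figure D2:**
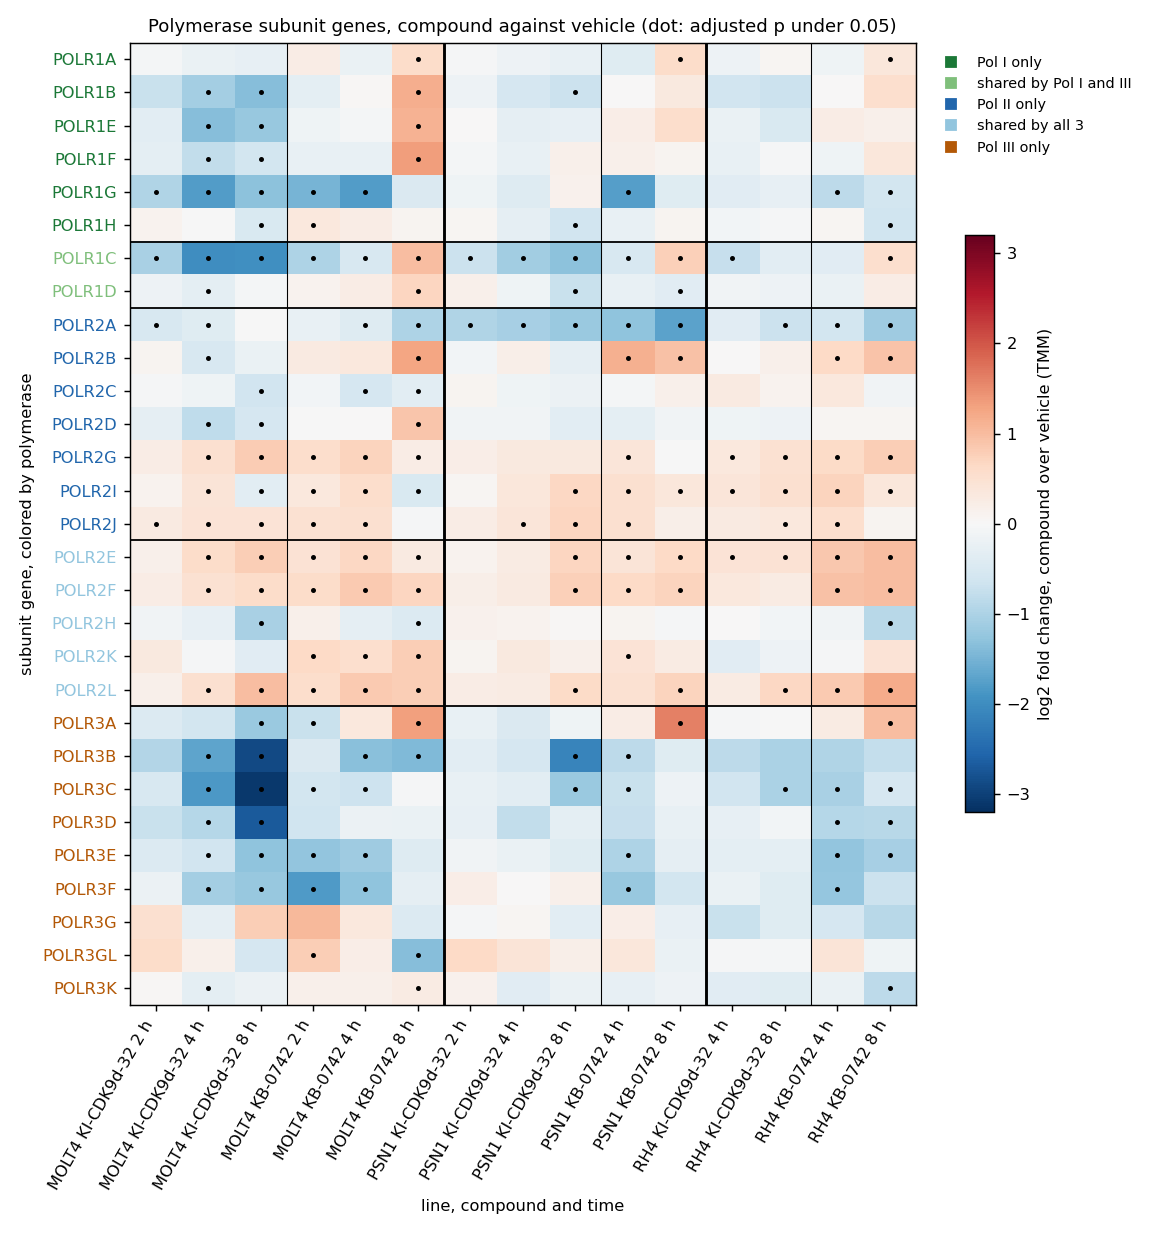
Relative log2 fold change of each subunit gene (rows, grouped and colored by polymerase) in each of 15 comparisons of a compound with vehicle (columns), with a dot where the adjusted p was under 0.05. Rows of small Pol II and shared subunits (POLR2G, POLR2J, POLR2E, POLR2F, POLR2L) are red where called, and POLR2A and the Pol III rows POLR3B to POLR3F are blue where called. On the spike-in scale, no cell with a dot was called higher, where 0.016% to 1.2% of all tested genes were.

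Among Pol II subunits, the largest one fell and several small ones rose relative to the other genes. POLR2A fell in 12 of the 15 comparisons of a compound with vehicle and rose in none. On the spike-in scale it was below 0 in all 15, but so were the median tested gene and the small subunits POLR2G and POLR2J. In PSN1 at 8 h, POLR2A had 55.3, 50.9, 46.2 and 31.9 CPM with KI-CDK9d-32, 35.8, 35.8, 24.5 and 31.9 CPM with KB-0742, and 79.3, 106, 123 and 114 CPM with vehicle. Both treated groups lay wholly below vehicle. The change was −1.19 ± 0.20 with KI-CDK9d-32 (adjusted p = 2.07e-05) and −1.72 ± 0.20 with KB-0742 (adjusted p = 2.37e-08).

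That fall was already present in PSN1 at the first time. KI-CDK9d-32 libraries had 45.6, 61.1, 75.4 and 74.8 CPM of POLR2A at 2 h, against 123, 127, 127 and 126 CPM in vehicle libraries. The groups did not overlap, and the change was −0.97 ± 0.19 (adjusted p = 0.00423). At 4 h it was −1.07 ± 0.19 with KI-CDK9d-32 (adjusted p = 0.000291) and −1.30 ± 0.20 with KB-0742 (adjusted p = 6.13e-06). In RH4 at 8 h, POLR2A had 90.9, 72.8, 72.6 and 67.7 CPM with KI-CDK9d-32, 72, 64.4, 44.8 and 41.4 CPM with KB-0742, and 136, 99.8, 130 and 126 CPM with vehicle, again without overlap with vehicle. It changed by −0.69 ± 0.15 with KI-CDK9d-32 (adjusted p = 0.000566) and by −1.13 ± 0.15 with KB-0742 (adjusted p = 8.54e-08). At 4 h in RH4 the change was −0.37 ± 0.14 with KI-CDK9d-32, which did not pass the test (adjusted p = 0.126), and −0.59 ± 0.15 with KB-0742, which did (adjusted p = 0.00183).

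MOLT4 was different for the degrader. At 8 h, POLR2A had 131, 97, 98.7 and 125 CPM with KI-CDK9d-32, 71.8, 59.2, 54.8 and 48.3 CPM with KB-0742, and 128, 98.8, 101 and 131 CPM with vehicle. The KI-CDK9d-32 and vehicle libraries covered the same range, and all 4 KB-0742 libraries lay below both. The change was −0.02 ± 0.15 with KI-CDK9d-32 (adjusted p = 0.923), which stood at −2.83 on the spike-in scale, and −0.98 ± 0.15 with KB-0742 (adjusted p = 4.46e-07).

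At the earlier times in MOLT4, POLR2A was lower by small amounts that depend on single libraries. It changed by −0.50 ± 0.14 with KI-CDK9d-32 at 2 h (adjusted p = 0.0149), and the call was lost without vehicle replicate 4 (−0.46, adjusted p = 0.0561) or KI-CDK9d-32 replicate 1 (−0.46, adjusted p = 0.0625). The value with KI-CDK9d-32 at 4 h was −0.40 ± 0.16 (adjusted p = 0.045), lost without any 1 of KI-CDK9d-32 replicates 3 and 4 and vehicle replicates 3 and 4 (adjusted p from 0.0753 to 0.163, values from −0.39 to −0.30). With KB-0742 at 4 h it was −0.42 ± 0.16 (adjusted p = 0.0328), lost without any 1 of KB-0742 replicates 1, 2 and 3 and vehicle replicates 3 and 4 (adjusted p from 0.0911 to 0.129, values from −0.38 to −0.35). With KB-0742 at 2 h it was −0.24 ± 0.14 and did not pass the test (adjusted p = 0.233).

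POLR2B, the second largest Pol II subunit and the partner of POLR2A in the active centre, went the other way with KB-0742. In MOLT4 at 8 h it had 55.7, 35.4, 48.9 and 48.6 CPM with KI-CDK9d-32, 164, 130, 119 and 111 CPM with KB-0742, and 64, 54.9, 49.3 and 49.2 CPM with vehicle. All KB-0742 libraries were above all others. POLR2B rose with KB-0742 at 8 h by 1.26 ± 0.15 in MOLT4 (adjusted p = 5.93e-10), 0.93 ± 0.20 in PSN1 (adjusted p = 0.000347) and 0.90 ± 0.17 in RH4 (adjusted p = 1.99e-05), and stood at −0.08, 0.05 and −0.68 on the spike-in scale. In PSN1 it had also risen at 4 h, by 1.14 ± 0.20 (adjusted p = 4.14e-05, 0.29 on the spike-in scale). Over all 15 comparisons POLR2B rose in 5, each with KB-0742, and fell in 1, with KI-CDK9d-32 in MOLT4 at 4 h.

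Of the smaller Pol II subunits, POLR2G rose in 10 of 15 comparisons and fell in none, and POLR2J in 10 and none. POLR2I rose in 10 and fell in 2. On the spike-in scale none of the 3 was called higher in any, where 0.016% to 1.2% of all tested genes were. POLR2G forms the stalk of Pol II with POLR2D, and POLR2J is the partner of POLR2C. POLR2G in MOLT4 at 8 h had 347, 267, 328 and 302 CPM with KI-CDK9d-32, 217, 211, 218 and 192 CPM with KB-0742, and 169, 187, 200 and 154 CPM with vehicle. All KI-CDK9d-32 libraries were above those of both other groups, and the rise was 0.81 ± 0.10 (adjusted p = 8.06e-10, −2.02 on the spike-in scale). POLR2J rose with KI-CDK9d-32 at 8 h by 0.45 ± 0.10 in MOLT4 (adjusted p = 0.000122, −2.36 on the spike-in scale) and by 0.68 ± 0.12 in PSN1 (adjusted p = 6.47e-05, −0.27). Reads of POLR2J may be shared with near-identical copies of the gene such as POLR2J2 and POLR2J3, so its values are uncertain.

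POLR2I was called higher at 4 h and lower at 8 h in MOLT4 on the relative scale. With KI-CDK9d-32 it had 239, 248, 236 and 300 CPM at 4 h and 126, 163, 165 and 177 CPM at 8 h, and with KB-0742 280, 301, 217 and 343 CPM at 4 h and 122, 140, 149 and 154 CPM at 8 h. Vehicle had 205, 180 and 194 CPM at 4 h and 202, 195, 208 and 192 CPM at 8 h, so treated libraries were above vehicle at the earlier time and below it at the later one. The changes with KI-CDK9d-32 were 0.40 ± 0.12 at 4 h and −0.34 ± 0.11 at 8 h (adjusted p = 0.00535 and 0.0102), at −0.53 and −3.14 on the spike-in scale. With KB-0742 they were 0.57 ± 0.12 and −0.49 ± 0.11 (adjusted p = 9.52e-05 and 0.000175), at −0.68 and −1.80 on the spike-in scale. In PSN1 and RH4 with KI-CDK9d-32 at 8 h it rose by 0.66 ± 0.12 and 0.50 ± 0.12 (adjusted p = 9.1e-05 and 0.00209), at −0.32 and −0.41 on the spike-in scale. POLR2I overlaps TBCB and OVOL3 on the other strand, and this library method does not mark strand, so reads from the overlapping parts cannot be told apart.

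The remaining Pol II subunits moved less often. POLR2C, which forms the assembly platform with POLR2J, fell in 3 comparisons, all in MOLT4, and POLR2D rose in 1 and fell in 2, all in MOLT4. POLR2D had 77.3, 73.2, 79.3 and 65.5 CPM with KI-CDK9d-32, 221, 186, 208 and 174 CPM with KB-0742 and 107, 119, 103 and 97.4 CPM with vehicle in MOLT4 at 8 h. The 3 groups did not overlap, with KI-CDK9d-32 below vehicle and KB-0742 above it.

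Of the 5 subunits common to all 3 enzymes, 4 had rises and no fall. POLR2E rose in 12 of 15 comparisons, POLR2F and POLR2L in 10 each and POLR2K in 4. On the spike-in scale none was called higher, where 0.016% to 1.2% of all tested genes were. POLR2L in MOLT4 at 8 h had 329, 383, 302 and 390 CPM with KI-CDK9d-32, 341, 348, 276 and 280 CPM with KB-0742, and 178, 162, 169 and 206 CPM with vehicle. Both treated groups lay above vehicle and overlapped each other. The rise was 0.98 ± 0.11 with KI-CDK9d-32 (adjusted p = 5.3e-11), at −1.81 on the spike-in scale, which was the highest spike-in value of any member in that comparison. In RH4 with KB-0742 at 8 h, POLR2L had 419, 369, 710 and 637 CPM, against 200, 195, 283 and 267 CPM with vehicle, and rose by 1.18 ± 0.21 (adjusted p = 9.74e-05, −0.42 on the spike-in scale).

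POLR2E and POLR2F, which sit at the lower jaw and near the clamp of each enzyme, rose in each line. With KI-CDK9d-32 at 8 h POLR2E rose by 0.78 ± 0.10 in MOLT4, 0.69 ± 0.14 in PSN1 and 0.46 ± 0.10 in RH4 (adjusted p = 4.77e-09, 0.000283 and 0.00139), and stood at −1.996, −0.28 and −0.44 on the spike-in scale. With KB-0742 at 8 h in RH4 it rose by 0.98 ± 0.10 (adjusted p = 2.71e-10, −0.61 on the spike-in scale). POLR2F rose with KI-CDK9d-32 at 8 h by 0.59 ± 0.10 in MOLT4 and 0.77 ± 0.12 in PSN1 (adjusted p = 1.39e-06 and 1.3e-05), at −2.19 and −0.21 on the spike-in scale. In RH4 it rose with KB-0742 at 8 h by 0.99 ± 0.18 (adjusted p = 6.21e-05, −0.59 on the spike-in scale). POLR2L overlaps CD151, POLR2E overlaps ARHGAP45, and POLR2F overlaps C22orf23 and SOX10, each on the other strand. Such overlaps also exist for POLR2B (NOA1 and IGFBP7), POLR2C (DOK4), POLR2J (LRWD1), POLR3F (DZANK1) and POLR3G (MBLAC2). POLR3GL overlaps AC243547.3 on its own strand.

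POLR2H was the exception among the shared subunits, with 3 falls and no rise. In RH4 at 8 h it had 94.9, 98.7, 125 and 109 CPM with KI-CDK9d-32, 54.8, 72.7, 58.9 and 60.5 CPM with KB-0742, and 108, 117, 107 and 122 CPM with vehicle. KB-0742 libraries lay below both other groups, which overlapped, and the fall was −0.88 ± 0.14 (adjusted p = 9.59e-07). In MOLT4 at 8 h POLR2H had 64.2, 70.2, 61.8 and 59.7 CPM with KI-CDK9d-32, 70.9, 92.2, 106 and 119 CPM with KB-0742 and 126, 140, 136 and 129 CPM with vehicle. Both treated groups were below vehicle, KI-CDK9d-32 at −1.05 ± 0.14 and KB-0742 at −0.45 ± 0.13 (adjusted p = 9.9e-09 and 0.00349).

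**Figure D3:**
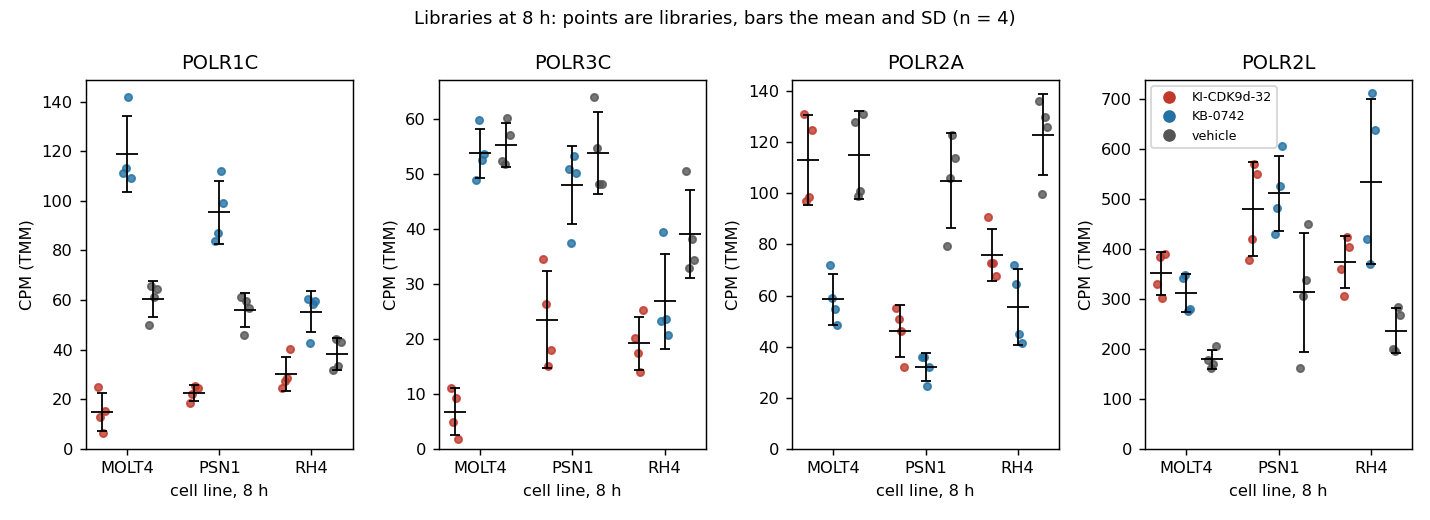
TMM-scaled CPM of POLR1C, POLR3C, POLR2A and POLR2L in each library at 8 h (points), with mean and SD of 4 libraries (bars), for KI-CDK9d-32, KB-0742 and vehicle in each line. POLR1C averages 14.8, 119 and 60.3 CPM with KI-CDK9d-32, KB-0742 and vehicle in MOLT4. POLR2L lies above vehicle in both treated MOLT4 groups on this relative scale, and at −1.81 with KI-CDK9d-32 on the spike-in scale.

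The largest falls of any member were those of Pol III subunits with KI-CDK9d-32 in MOLT4 at 8 h. In several other comparisons the lowest member was of another enzyme. With KB-0742 in PSN1 at 8 h it was POLR2A at −1.72, where the lowest Pol III subunit stood at −0.59. The lowest fold change of any member in the 15 comparisons was that of POLR3C, part of the trimer that helps open DNA at Pol III promoters. POLR3C in MOLT4 at 8 h had 11.1, 4.88, 9.22 and 1.75 CPM with KI-CDK9d-32, 48.8, 59.7, 52.6 and 53.6 CPM with KB-0742, and 52.3, 51.7, 60.2 and 57 CPM with vehicle. The KI-CDK9d-32 libraries were far below the others, which overlapped, and rested on 17, 8, 10 and 3 counts. The fall was −3.09 ± 0.27 (adjusted p = 3.61e-14). At 4 h it was −1.85 ± 0.23 (adjusted p = 4.43e-09).

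POLR3C also fell with KI-CDK9d-32 at 8 h in the other lines. It had 34.5, 26.4, 15 and 17.9 CPM, against 64, 54.7, 48.2 and 48.1 CPM with vehicle, in PSN1 (−1.18 ± 0.22, adjusted p = 8.96e-05). In RH4 it had 20.2, 17.5, 13.9 and 25.3 CPM, against 50.5, 32.9, 38.1 and 34.3 CPM with vehicle (−1.01 ± 0.21, adjusted p = 0.00057). Treated and vehicle libraries did not overlap in either line. Over all 15 comparisons POLR3C fell in 9 and rose in none. It was below 0 in all 15 on the spike-in scale, as was the median tested gene.

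POLR3B, the second largest Pol III subunit, fell in 6 comparisons, and its levels were low. In MOLT4 at 8 h it had 0, 9, 0 and 2 counts in the 4 KI-CDK9d-32 libraries, 7, 11, 8 and 20 counts in the KB-0742 libraries, and 40, 46, 50 and 37 counts in the vehicle libraries. All treated libraries lay below all vehicle libraries. The fitted change was −2.89 ± 0.53 with KI-CDK9d-32 (adjusted p = 8.13e-06) and −1.42 ± 0.42 with KB-0742 (adjusted p = 0.00445). In PSN1 at 8 h POLR3B had 4.99, 2.97, 2.72 and 2.49 CPM with KI-CDK9d-32, 11.2, 11.5, 12.5 and 8.89 CPM with KB-0742 and 19.5, 17, 10.9 and 11.3 CPM with vehicle. The change with KI-CDK9d-32 was −2.12 ± 0.32 (adjusted p = 5.38e-06).

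POLR3A, the largest Pol III subunit, rose with KB-0742 at 8 h, where its partner POLR3B fell in MOLT4 and was not called in PSN1 or RH4. At 2 h in MOLT4, POLR3A fell with KB-0742. In PSN1 at 8 h POLR3A had 31.2, 28.2, 19.9 and 24.9 CPM with KI-CDK9d-32, 86.3, 100, 71.4 and 93.1 CPM with KB-0742, and 27.6, 27.1, 30.8 and 28.6 CPM with vehicle. All KB-0742 libraries were above the others. It rose with KB-0742 at 8 h by 1.62 ± 0.18 in PSN1 (adjusted p = 3.22e-09), 1.30 ± 0.24 in MOLT4 (adjusted p = 9.45e-06) and 0.98 ± 0.16 in RH4 (adjusted p = 2.62e-06), with spike-in values of 0.72, −0.03 and −0.60. In PSN1 this was the highest spike-in value of any member in the comparison.

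The pair POLR3D and POLR3E, which bind each other at the edge of Pol III, fell in 4 and 7 comparisons and rose in none. POLR3D had 3.93, 1.22, 0.922 and 4.09 CPM (6, 2, 1 and 7 counts) with KI-CDK9d-32 in MOLT4 at 8 h, against 19.6, 21.8, 13 and 14.6 CPM with vehicle, without overlap (−2.68 ± 0.37, adjusted p = 2.52e-08). In RH4 with KB-0742 at 8 h, POLR3E had 17.2, 15.3, 11.2 and 8.29 CPM, against 35.9, 20.9, 23.2 and 30.9 CPM with vehicle, again without overlap (−1.07 ± 0.27, adjusted p = 0.00118). POLR3D fell there too, at −0.89 ± 0.26 (adjusted p = 0.00468). POLR3E also fell with KB-0742 at 2 and 4 h in MOLT4, at −1.25 ± 0.20 and −1.15 ± 0.22 (adjusted p = 2.03e-06 and 3.79e-05).

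POLR3F, the third member of the trimer with POLR3C, fell in 6 comparisons and rose in none. It had 1.2, 1.09, 2.32 and 1.92 CPM with KB-0742 in MOLT4 at 2 h, against 6.41, 4.44, 5.2 and 7.45 CPM with vehicle, a fall of −1.80 ± 0.45 without overlap (adjusted p = 0.00174). POLR3K, the small subunit for RNA cleavage and termination, fell in RH4 with KB-0742 at 8 h, at −0.83 ± 0.17 (adjusted p = 0.000135). It had 63.7, 48.4, 51.9 and 35.6 CPM there, against 85, 93, 90.3 and 90.5 CPM with vehicle, with no overlap. POLR3K overlaps SNRNP25 on the other strand.

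POLR3G did not pass the test in any of the 15 comparisons of a compound with vehicle, and its values ran between −0.90 and 1.04. Its counts were few in MOLT4 (median 9, 3 to 24) and RH4 (median 8, 2 to 16), so a change there could be missed. In PSN1, where its level was highest, it had 12.1, 13.8, 15 and 14 CPM with KI-CDK9d-32, 13.8, 18.1, 10.7 and 14.6 CPM with KB-0742, and 26.4, 17.4, 12.7 and 12.9 CPM with vehicle at 8 h. The groups overlapped, at −0.33 ± 0.24 with KI-CDK9d-32 (adjusted p = 0.363) and −0.26 ± 0.24 with KB-0742 (adjusted p = 0.437). POLR3GL had 8.52, 9.15, 12.9 and 9.94 CPM with KI-CDK9d-32, 7.23, 8.38, 4.05 and 3.04 CPM with KB-0742, and 18.3, 9.97, 16.9 and 12.6 CPM with vehicle in MOLT4 at 8 h. The KB-0742 libraries lay below vehicle without overlap (−1.37 ± 0.32, adjusted p = 0.000343), while KI-CDK9d-32 overlapped it (−0.53 ± 0.31, adjusted p = 0.159). Its only rise, 0.79 ± 0.28 with KB-0742 in MOLT4 at 2 h (adjusted p = 0.0303, −0.02 on the spike-in scale), was lost without any 1 of KB-0742 replicates 1 and 3 and vehicle replicates 1 and 3 (adjusted p from 0.0665 to 0.12, values from 0.64 to 0.77). In PSN1 and RH4, POLR3GL at 8 h stood at 0.20 ± 0.39 and −0.06 ± 0.25 with KI-CDK9d-32, and at −0.21 ± 0.40 and −0.15 ± 0.26 with KB-0742.

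POLR1C is shared by Pol I and III as part of their assembly platform. It fell in 10 of the 15 comparisons and rose in 3, all 3 with KB-0742 at 8 h. In MOLT4 at 8 h it had 24.9, 12.8, 6.46 and 15.2 CPM with KI-CDK9d-32, 111, 113, 142 and 109 CPM with KB-0742, and 49.9, 65.5, 61.3 and 64.4 CPM with vehicle. The 3 groups did not overlap, with KI-CDK9d-32 lowest and KB-0742 highest. The change was −1.97 ± 0.20 with KI-CDK9d-32 (adjusted p = 4.4e-12) and 0.98 ± 0.16 with KB-0742 (adjusted p = 7.97e-07, −0.35 on the spike-in scale).

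With KI-CDK9d-32 in MOLT4, the loss of POLR1C was present at each time. It had 32.8, 32.9, 42.7 and 34 CPM at 2 h, against 78.3, 78.1, 65.3 and 70.6 CPM with vehicle (−1.04 ± 0.16, adjusted p = 8.56e-06). At 4 h it had 16.3, 20.2, 18.5 and 18.9 CPM, against 71.8, 80.1 and 67.4 CPM with vehicle (−1.99 ± 0.19, adjusted p = 8.48e-12). The groups did not overlap at either time. POLR1C overlaps XPO5, YIPF3 and LRRC73 on the other strand.

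In PSN1 at 8 h POLR1C had 18.3, 21.9, 25.4 and 24.4 CPM with KI-CDK9d-32, 83.7, 86.8, 112 and 98.9 CPM with KB-0742, and 61.3, 45.8, 59.5 and 56.9 CPM with vehicle. The order was the one seen in MOLT4, again without overlap, at −1.32 ± 0.17 with KI-CDK9d-32 (adjusted p = 2.72e-07) and 0.77 ± 0.16 with KB-0742 (adjusted p = 0.000193, −0.14 on the spike-in scale). The other shared subunit POLR1D fell there with KI-CDK9d-32, at −0.70 ± 0.13 (adjusted p = 0.000113), with 81.5, 70.6, 82.5 and 77.3 CPM against 159, 139, 106 and 103 CPM with vehicle. RH4 gave POLR1C levels of 24.7, 27.5, 28.7 and 40.2 CPM with KI-CDK9d-32, 60.3, 42.7, 58.3 and 59.7 CPM with KB-0742, and 31.9, 44.3, 33.3 and 43 CPM with vehicle, where KI-CDK9d-32 overlapped vehicle and so did KB-0742.

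Pol I subunits also differed between the compounds in MOLT4. With KI-CDK9d-32 at 8 h 5 of the 6 Pol I subunits fell and none rose (28.7% of all tested genes fell). With KB-0742 at 8 h 4 of the 6 rose and none fell (23.4% of genes rose). On the spike-in scale none was called higher with either compound, beside 0.857% and 0.609% of all tested genes. POLR1G, which pairs with POLR1E at the edge of Pol I, fell in 8 of the 15 comparisons and rose in none. In MOLT4 at 4 h it had 8.52, 4.95, 2.5 and 5.48 CPM with KI-CDK9d-32, 4.55, 6.86, 5.57 and 4.89 CPM with KB-0742, and 17.7, 20.1 and 19.3 CPM with vehicle. Both treated groups lay below vehicle, KI-CDK9d-32 at −1.79 ± 0.33 and KB-0742 at −1.79 ± 0.34 (adjusted p = 2.62e-05 and 3.59e-05). By 8 h the value was −1.31 ± 0.32 with KI-CDK9d-32 (adjusted p = 0.000538). POLR1G also fell with KB-0742 at 2 h in MOLT4 (−1.49 ± 0.29) and at 4 h in PSN1 (−1.77 ± 0.35), with adjusted p = 7.19e-05 and 0.000363, and it overlaps ERCC1 and PPP1R13L on the other strand.

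POLR1F, the stalk subunit through which Pol I meets its initiation factor RRN3, had 15.1, 13.4, 8.3 and 19.9 CPM with KI-CDK9d-32, 50.1, 57.6, 57.1 and 57 CPM with KB-0742, and 21.8, 23.1, 21.8 and 21.4 CPM with vehicle in MOLT4 at 8 h. All KB-0742 libraries were above vehicle and all KI-CDK9d-32 libraries below it. The rise with KB-0742 was 1.33 ± 0.19 (adjusted p = 4.33e-08) and 0.03 on the spike-in scale, the highest spike-in value of any member in that comparison. POLR1B and POLR1E rose as well, by 1.16 ± 0.36 and 1.10 ± 0.24 (adjusted p = 0.00627 and 0.00013), at −0.12 and −0.21 on the spike-in scale. POLR1B had 4.59, 3.66, 4.61 and 0.585 CPM with KI-CDK9d-32, 17.2, 18.9, 18.9 and 20.9 CPM with KB-0742, and 10.1, 11.5, 5.29 and 6.8 CPM with vehicle, without overlap between the 3 groups.

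**Figure D4:**
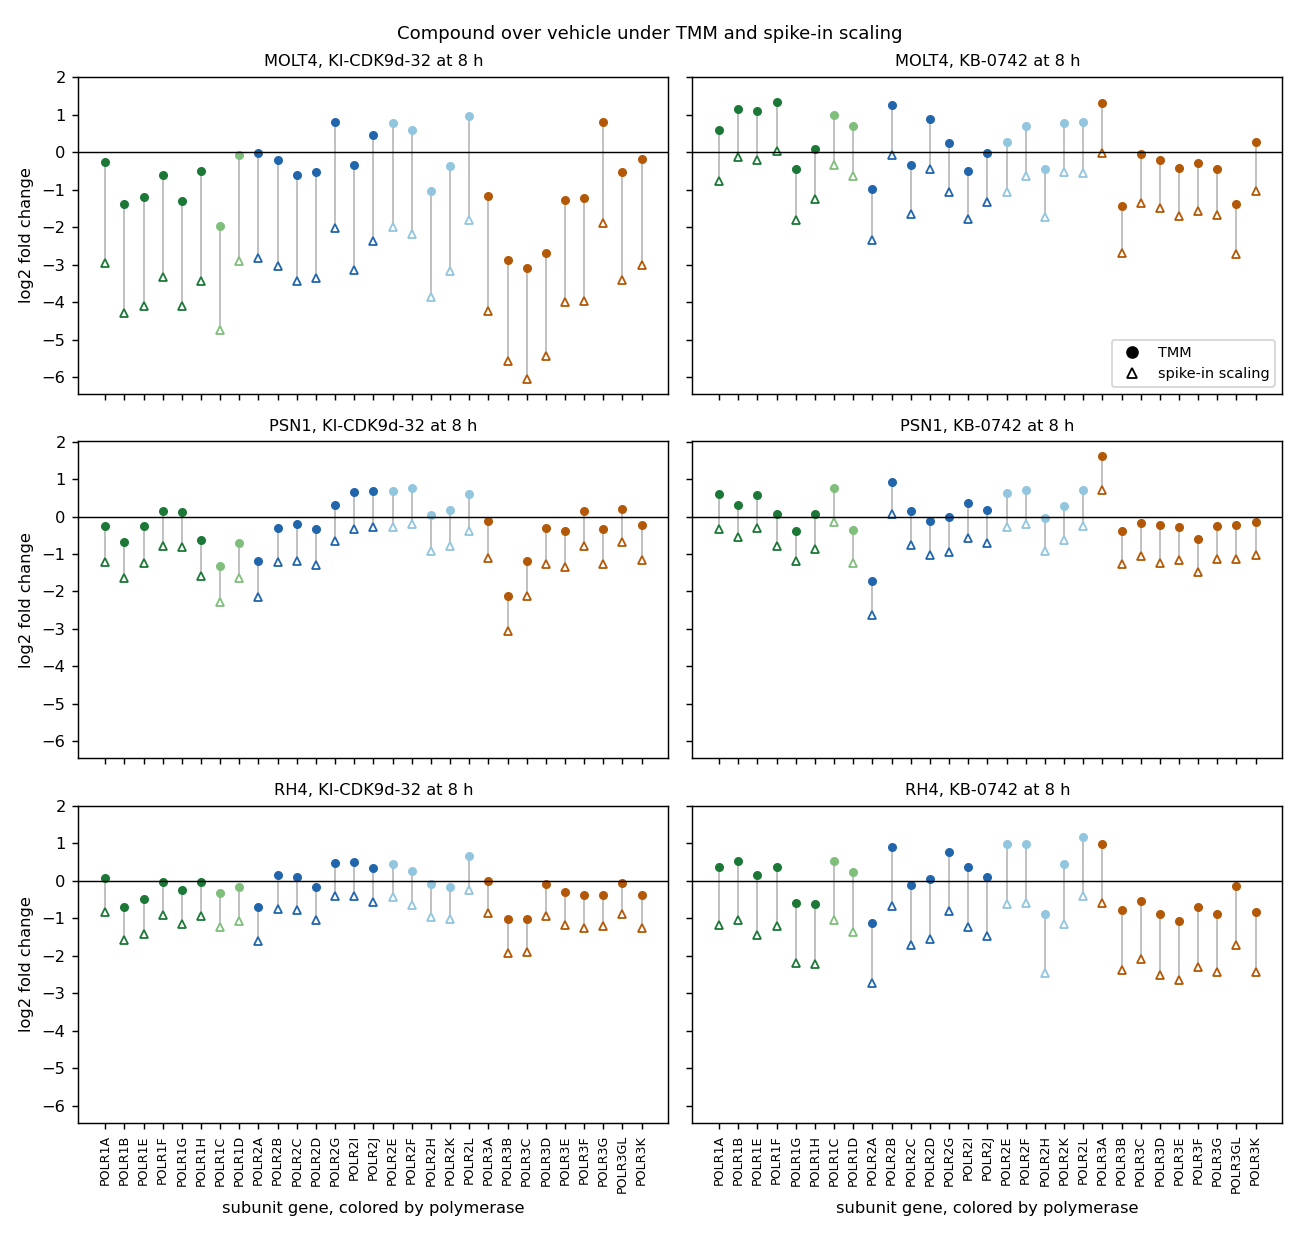
Log2 fold change of each subunit gene with KI-CDK9d-32 (left) and KB-0742 (right) at 8 h in each line, under TMM scaling (filled circles) and spike-in scaling (open triangles), joined for each gene and colored by polymerase. All 29 triangles lie below 0 for KI-CDK9d-32 in MOLT4, between −6.06 and −1.81, where the circles lie between −3.09 and 0.98.

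The compounds were compared directly in 7 pairs of groups at matched times, at doses the labels do not give. In MOLT4, 2 members were higher and 4 lower with KI-CDK9d-32 than with KB-0742 at 2 h (8.2% and 10.1% of genes), 1 higher and 14 lower at 4 h (14.6% and 21.1%), and 6 higher and 18 lower at 8 h (28.9% and 29.6%). The counts on the spike-in scale were 0 and 0 at 2 h (3.4% of genes higher and 0.763% lower) and at 4 h (7.67% and 6.38%). At 8 h there were 0 higher and 24 lower, where 2.35% of genes were higher and 54.8% lower. Without the 3 MOLT4 libraries of high spike-in share, 1 was higher and 8 lower at 4 h (1692 and 1809 of 11664 genes). At 8 h 5 were higher and 16 lower (3334 and 3314 genes). In PSN1, 3 were higher and 4 lower at 4 h (9.97% and 7.47%), and 2 higher and 9 lower at 8 h (12% and 12.8%), beside 3 higher and 0 lower, then 0 higher and 6 lower, on the spike-in scale (8.75% of genes higher at 4 h and 7.08% lower at 8 h). In RH4, 2 were higher and 5 lower at 4 h (13.4% and 12.4%), and 6 higher and 10 lower at 8 h (19.1% and 19.3%), beside 8 and then 10 higher and none lower on the spike-in scale, where 34.2% and 36.6% of genes were higher. The RH4 count at 4 h was 4 in all without KB-0742 replicate 1 or without KI-CDK9d-32 replicate 2 or 3.

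POLR1C was lower with KI-CDK9d-32 than with KB-0742 at 8 h in each line, at −2.96 ± 0.20 in MOLT4 (adjusted p = 3.46e-18), −2.08 ± 0.17 in PSN1 (adjusted p = 1.24e-12) and −0.86 ± 0.20 in RH4 (adjusted p = 0.000624), and it was below 0 in each on the spike-in scale (−4.40, −2.14 and −0.16). POLR3A was lower in PSN1 (−1.75 ± 0.18, adjusted p = 8.59e-10) and in RH4 (−0.99 ± 0.16, adjusted p = 5.3e-06). POLR1B was lower in MOLT4 (−2.53 ± 0.44, adjusted p = 3e-06) and in RH4 (−1.23 ± 0.30, adjusted p = 0.00105). Other lower values at 8 h were those of POLR3C in MOLT4 (−3.05 ± 0.27, adjusted p = 9.37e-14) and POLR3B in PSN1 (−1.72 ± 0.33, adjusted p = 0.000112). These 6 values kept their sign on the spike-in scale, between −0.25 and −4.70.

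POLR2A lay on the other side in MOLT4, where it was higher with KI-CDK9d-32 than with KB-0742 at 8 h by 0.96 ± 0.16 (adjusted p = 9.64e-07) on the relative scale, but at −0.48 on the spike-in scale. In PSN1 the difference was 0.53 ± 0.21 and did not pass the test (adjusted p = 0.0575). RH4 gave 0.43 ± 0.16 (adjusted p = 0.0261, 1.14 on the spike-in scale), a call lost without KI-CDK9d-32 replicate 1, KB-0742 replicate 3 or KB-0742 replicate 4 (0.34, 0.34 and 0.33, adjusted p = 0.108, 0.116 and 0.117). POLR2A did not pass the test between the compounds at 2 h in MOLT4 (−0.27 ± 0.15) or at 4 h in MOLT4 (0.02 ± 0.15), PSN1 (0.23 ± 0.20) or RH4 (0.22 ± 0.15).

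Several smaller subunits also differed between compounds, with signs that depend on the line or scale. POLR2G and POLR2E were higher with KI-CDK9d-32 in MOLT4 at 8 h by 0.57 ± 0.10 and 0.50 ± 0.10 (adjusted p = 2.17e-06 and 2.96e-05), and each stood at −0.94 on the spike-in scale. POLR2J was higher in PSN1 at 8 h by 0.51 ± 0.12 (adjusted p = 0.00173, 0.45 on the spike-in scale). POLR2H and POLR1H were higher in RH4 at 8 h by 0.79 ± 0.14 and 0.59 ± 0.17 (adjusted p = 1.14e-05 and 0.0044), at 1.502 and 1.28 on the spike-in scale. POLR3G and POLR3GL were called higher in MOLT4 at 8 h (1.23 ± 0.54 and 0.84 ± 0.36, adjusted p = 0.0455 and 0.0379, at −0.20 and −0.68 on the spike-in scale). The POLR3G call was lost without any 1 of 5 libraries (KI-CDK9d-32 replicates 3 and 4, KB-0742 replicates 1, 2 and 3), with values from 0.78 to 1.27, and the POLR3GL call without any 1 of 4 (replicates 3 and 4 of each compound), with values from 0.63 to 0.86.

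**Figure D5:**
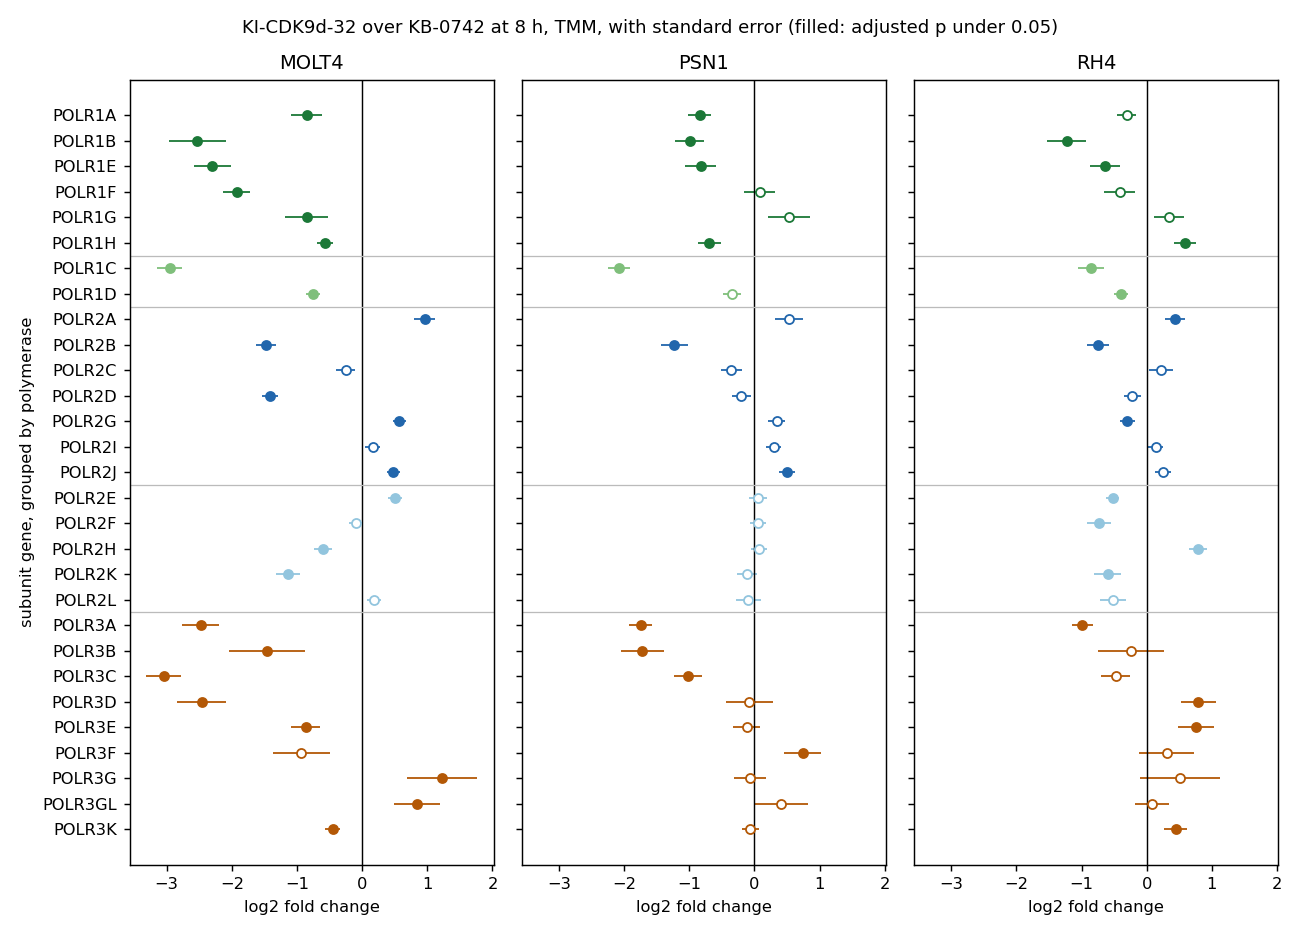
Log2 fold change of KI-CDK9d-32 over KB-0742 at 8 h for each subunit gene, with standard error, in MOLT4, PSN1 and RH4 under TMM scaling, filled where the adjusted p was under 0.05. POLR1C lies below 0 in each line, at −2.96, −2.08 and −0.86. POLR2A lies above 0 in MOLT4 at 0.96, and at −0.48 there on the spike-in scale.

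The effect of each compound on the members was also compared between 8 h and 4 h. With KI-CDK9d-32 in MOLT4, 1 effect was higher at 8 h and 4 were lower (5.15% and 7.36% of genes). When 1 library was left out 3 to 7 were called, the fewest without KI-CDK9d-32 replicate 4 of 8 h. On the spike-in scale 0 were higher and 23 lower (0.0686% and 45.4% of genes). POLR3D had the lowest difference, −1.77 ± 0.49 (adjusted p = 0.00932), followed by POLR2H and POLR2I at −0.78 ± 0.20 and −0.74 ± 0.16 (adjusted p = 0.00388 and 0.000722). With KB-0742 in MOLT4, 7 effects were higher at 8 h and 4 lower (7.8% and 9.95% of genes). On the spike-in scale the counts were 0 and 0, where 0% of all tested genes were called in each direction. The effects on POLR1F, POLR1C and POLR2B were higher by 1.56 ± 0.28, 1.49 ± 0.23 and 0.94 ± 0.22 (adjusted p = 3.89e-05, 5.4e-06 and 0.0014), at 1.55, 1.41 and 0.91 on the spike-in scale. Those on POLR3GL, POLR2I and POLR2J were lower, at −1.59 ± 0.45, −1.06 ± 0.16 and −0.54 ± 0.14 (adjusted p = 0.00823, 2.3e-06 and 0.00455).

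In PSN1 with KB-0742, 3 effects were higher at 8 h and 0 lower (1.31% and 0.577% of genes). POLR3A and POLR1C were at 1.38 ± 0.25 and 1.28 ± 0.22 (adjusted p = 0.00114 and 0.000773). On the spike-in scale the counts were 0 and 0 (0.016% and 0% of genes). In RH4 with KB-0742, 0 and 0 were called on the spike-in scale (0.0166% and 2.51% of genes). On the relative scale 2 were higher and 1 lower (4.4% and 4.11% of genes), with POLR2H at −0.75 ± 0.19 (adjusted p = 0.00796). That count was 1 without vehicle replicate 1, 2 or 4 of 4 h, vehicle replicate 3 of 8 h, KB-0742 replicate 1 of 4 h or KB-0742 replicate 4 of 8 h, and 5 without vehicle replicate 4 of 8 h. With KI-CDK9d-32 no member's effect was called different between 8 h and 4 h in PSN1 (0.00802% of genes in each direction) or RH4 (0% of genes in each) by edgeR, while 5 and 0 members had an unadjusted p under 0.05 and DESeq2 called 0 and 0.

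Between lines, the effect of KI-CDK9d-32 at 8 h differed most for MOLT4. Against PSN1, the effect in MOLT4 was higher for 3 members and lower for 6 (7.35% and 10.3% of genes). On the spike-in scale it was higher for 0 and lower for 27 (0.63% and 49.1% of genes). POLR2A was higher by 1.24 ± 0.25 (adjusted p = 6.67e-05), at −0.70 on the spike-in scale, and POLR3D, POLR3C and POLR2H were lower, at −2.28 ± 0.52, −1.83 ± 0.36 and −1.02 ± 0.18 (adjusted p = 0.000516, 5.72e-05 and 5.8e-06). Against RH4 on the spike-in scale, 0 were higher and 28 lower (0.516% and 53.4% of genes). On the relative scale 1 was higher and 9 lower (6.5% and 10.2% of genes). POLR3D, POLR3C and POLR1C were at −2.52 ± 0.48, −2.01 ± 0.37 and −1.59 ± 0.27 (adjusted p = 2.97e-05, 1.2e-05 and 2.88e-06). Without replicate 4 of all groups 5 were called, and without replicate 2 6 were. POLR2A there was at 0.73 ± 0.24 (adjusted p = 0.0249, −1.24 on the spike-in scale), a call lost without replicate 1, 2, 3 or 4 (0.68, 0.81, 0.69 and 0.68, adjusted p = 0.0583, 0.0822, 0.129 and 0.0612). PSN1 against RH4 gave 0 higher and 1 lower (0.327% and 0.246% of genes), which was not called without replicate 1, 2, 3 or 4.

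The effect of KB-0742 at 8 h was compared between lines in the same way. In MOLT4 against PSN1 3 were higher and 2 lower (4.36% and 7.98% of genes). MOLT4 against RH4 gave 5 higher and 3 lower (3.77% and 5.6%), and PSN1 against RH4 3 higher and 2 lower (4.34% and 3.46%). On the spike-in scale the counts were 0 and 0 each time. Genes higher and lower there were 0.145% and 1.97%, 0.321% and 0.384%, and 1.45% and 0.12%, in the same order. POLR1F, POLR1D and POLR2D had higher effects in MOLT4 than in PSN1, by 1.16 ± 0.30, 0.96 ± 0.15 and 0.93 ± 0.18 (adjusted p = 0.00325, 1.51e-06 and 7.4e-05). POLR2I had a lower one, at −0.94 ± 0.17 against PSN1 and −0.87 ± 0.17 against RH4 (adjusted p = 2.41e-05 and 0.000127). POLR3K and POLR2D were higher in MOLT4 than in RH4 by 1.08 ± 0.20 and 0.82 ± 0.18 (adjusted p = 2.78e-05 and 0.000448). PSN1 against RH4 gave POLR2H at 0.92 ± 0.18 and POLR2G at −0.74 ± 0.16 (adjusted p = 0.000243 and 0.00115). Without replicate 3 the MOLT4 and RH4 count was 4, and the PSN1 and RH4 count was 2 without replicate 2 and 3 without replicate 4.

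Genes around the polymerases were counted from 4 lists, to be read against the shares of all tested genes in the same comparisons. In MOLT4 at 8 h these were 20.8% that rose and 28.7% that fell with KI-CDK9d-32 and 23.4% and 25.8% for KB-0742. On the spike-in scale 0.857% and 0.609% were higher, and 91% and 54.3% lower. Of 7 Pol I initiation genes, 2 rose and 4 fell with KI-CDK9d-32 in MOLT4 at 8 h, and 4 rose and 0 fell with KB-0742, with 0 higher and 7 and 2 lower on the spike-in scale. RRN3, the factor that brings Pol I to its promoter, fell with KI-CDK9d-32 (−2.08 ± 0.32, adjusted p = 3.4e-07), as did TAF1A, a subunit of the promoter selectivity factor (−2.76 ± 0.51, adjusted p = 1.16e-05). With KB-0742, TAF1D of that factor rose by 1.76 ± 0.13 in MOLT4, 1.32 ± 0.11 in PSN1 and 1.27 ± 0.14 in RH4 (adjusted p = 4.03e-16, 8.39e-12 and 1.06e-09), at 0.45, 0.44 and −0.31 on the spike-in scale. In PSN1 with KI-CDK9d-32 it fell, at −1.04 ± 0.12 (adjusted p = 2.79e-08).

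Of 16 Pol III initiation and control genes, 2 rose and 7 fell with KI-CDK9d-32 in MOLT4 at 8 h and 4 rose and 1 fell with KB-0742 (0 higher and 16 and 9 lower on the spike-in scale). BRF2, which serves Pol III at promoters outside the transcribed gene, fell with KI-CDK9d-32, at −3.24 ± 0.42 in MOLT4 and −2.15 ± 0.50 in PSN1 (adjusted p = 6.25e-09 and 0.00155), and rose with KB-0742 in MOLT4 by 0.97 ± 0.27 (adjusted p = 0.00281, −0.40 on the spike-in scale). SNAPC2, of the complex that binds small nuclear RNA promoters, fell with KI-CDK9d-32 in MOLT4, at −3.46 ± 0.49 (adjusted p = 4.98e-08). GTF3C4, a subunit of the factor TFIIIC, rose with KB-0742 by 2.14 ± 0.32 in MOLT4 and 1.73 ± 0.35 in RH4 (adjusted p = 1.83e-07 and 7.44e-05), at 0.74 and 0.14 on the spike-in scale.

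Of 14 genes for polymerase assembly and import, 2 rose and 5 fell with KI-CDK9d-32 in MOLT4 at 8 h, and 2 rose and 4 fell with KB-0742 (0 higher and 14 and 11 lower on the spike-in scale). GPN1, a GTPase needed for Pol II import, fell with KI-CDK9d-32 (−1.34 ± 0.19, adjusted p = 2.55e-08), and the helicase RUVBL2 fell with KB-0742 (−0.77 ± 0.12, adjusted p = 2.01e-07). Of 14 kinase and phosphatase genes of the POLR2A tail, 3 rose and 5 fell with KI-CDK9d-32 in MOLT4 at 8 h, and 9 rose and 2 fell with KB-0742 (0 and 1 higher, and 14 and 4 lower, on the spike-in scale). CCNH and CDK7, parts of the kinase of TFIIH, fell with KI-CDK9d-32, at −2.85 ± 0.33 and −1.75 ± 0.34 (adjusted p = 2.82e-10 and 2.09e-05). CCNT2, a cyclin partner of CDK9, rose with KB-0742 by 2.73 ± 0.29 in MOLT4, 2.13 ± 0.29 in PSN1 and 1.59 ± 0.26 in RH4 (adjusted p = 4.69e-11, 3.71e-07 and 3.58e-06), at 1.41, 1.22 and 0.03 on the spike-in scale. With KI-CDK9d-32 at 8 h it also rose, by 1.31 ± 0.30 in PSN1 and 1.37 ± 0.26 in RH4 (adjusted p = 0.00113 and 0.000142). These rises stood at 0.35 and 0.50 on the spike-in scale. In PSN1 at 8 h, 1 and 2 Pol I initiation genes, 1 and 3 Pol III genes, 4 and 1 assembly genes and 2 and 2 tail kinase and phosphatase genes rose and fell with KI-CDK9d-32. In RH4 these counts were 1 and 1, 1 and 2, 0 and 1, and 2 and 0. Of all tested genes, 11% rose and 9.61% fell in PSN1, and 9.19% rose and 6.05% fell in RH4.

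Promoters were searched for the letters CACGTG, the site that MYC binds together with its partner MAX. The RefSeq windows (GRCh38.p14, 250 bases before to 50 after a gene's start) matched 22 of the 29 members, and CACGTG, which reads the same on both strands, was present in 4 of them (18.2%) and in 2030 of all 27305 windows (7.43%). The 4 are POLR3C, POLR3A, POLR3E and POLR1G, of which 100 bases each are shown with the match in capitals. POLR2L and POLR2F, which rose in 10 comparisons each on the relative scale and hold no match in their windows, are shown beside them. Members without a match also include POLR2A, with 12 falls and no rise in 15 comparisons, and POLR1C, with 10 falls and 3 rises. Their windows are not shown.
POLR3C (chr1:145823957-145824056, plus strand): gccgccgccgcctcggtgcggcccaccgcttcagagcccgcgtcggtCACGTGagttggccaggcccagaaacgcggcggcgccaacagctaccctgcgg
POLR3A (chr10:78029498-78029597, minus strand): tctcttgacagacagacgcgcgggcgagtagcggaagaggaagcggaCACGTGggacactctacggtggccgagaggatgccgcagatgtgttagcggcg
POLR3E (chr16:22297334-22297433, plus strand): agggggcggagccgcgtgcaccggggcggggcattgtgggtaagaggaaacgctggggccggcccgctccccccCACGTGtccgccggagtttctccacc
POLR1G (chr19:45406569-45406668, plus strand): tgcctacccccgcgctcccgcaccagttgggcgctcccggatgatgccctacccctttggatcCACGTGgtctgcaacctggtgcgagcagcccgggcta
POLR2L (chr11:842505-842604, minus strand): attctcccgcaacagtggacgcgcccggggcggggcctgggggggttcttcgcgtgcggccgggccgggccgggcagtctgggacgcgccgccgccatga
POLR2F (chr22:37953624-37953723, plus strand): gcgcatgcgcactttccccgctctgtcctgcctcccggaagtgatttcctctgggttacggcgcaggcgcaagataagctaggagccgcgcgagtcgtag
Sequences run 5′ to 3′ along the gene.

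The 4 members with the match all fell with KI-CDK9d-32 in MOLT4 at 8 h, beside 9 that fell and 3 that rose of the 18 without it. In PSN1 1 of the 4 fell, beside 6 that fell and 3 that rose of the 18 (median log2 change −0.26 and −0.23), and in RH4 1 of the 4 fell, beside 1 that fell and 2 that rose of the 18. With KB-0742 in MOLT4 at 2 h, the 4 all fell, beside 2 that fell and 5 that rose of the 18. With KB-0742 at 8 h, 1 rose and 0 fell in MOLT4 and in PSN1, and 1 rose and 3 fell in RH4, the riser being POLR3A. These counts describe 4 genes and carry no test, and a match in the letters is not a measured binding site.

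Fold changes were also set against gene span. Of the 29 members, 12 span under 10000 bases and 17 more. With KI-CDK9d-32 at 8 h the median change of the short and long members was −0.35 and −0.60 in MOLT4, beside −0.03 and −0.22 for all tested genes. PSN1 gave 0.15 and −0.33, beside 0.08 and −0.08, and RH4 0.04 and −0.30, beside 0.09 and −0.07. With KB-0742 at 8 h in MOLT4 the order of the members was the other way, at 0.03 for the short and 0.69 for the long, beside 0.13 and −0.18 for all genes. Short members also had higher vehicle levels in MOLT4 (Spearman's rho −0.48 between span and level across the 29 genes). With KI-CDK9d-32 at 8 h in MOLT4, rho with the members' fold change was −0.20 for span and 0.57 for level. PSN1 gave −0.55 and 0.42, and RH4 −0.39 and 0.57. With KB-0742 at 8 h in MOLT4 the values were 0.19 and −0.03. Span and level go together, and their separate parts were not tested.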

How the data were processed

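RNA of 91 libraries was sequenced with SMART-seq2 and Nextera XT, per the labels' protocols, a method that does not mark strand. The deposited tables hold estimated counts per gene as whole numbers, and TPM as log2(TPM + 1), from Salmon on hg38 per the submitters' processing notes. Versions and annotation are not given in the sources used here. Of 62856 entries, 92 ERCC and 7 SIRV spike-ins and 47 second copies of genes shared by the X and Y chromosomes were set apart.

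Counts were tested with edgeR 4.0.16 (R 4.3.3) by its robust quasi-likelihood test, with TMM scaling, filterByExpr (minimum count 10) and Benjamini-Hochberg adjustment at 0.05 over all genes tested in a comparison. Each line had its own fit with 1 mean per group, and contrasts between lines came from 1 fit of all libraries. Genes tested numbered 11664 in MOLT4, 12471 in PSN1, 12058 in RH4 and 15881 in the joint fit, and those left out held 0.437%, 0.584%, 0.683% and 0.326% of counts. The procedure was run on simulated counts with few changed genes, even in both directions, and a fixed spike-in share. Those settings differ from these data, so the run cannot show how either scaling handles the broad shifts seen here. CPM are TMM-scaled. TPM were rescaled over genes without spike-ins and used only for levels between genes.

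Alternatives were spike-in library sizes, relative log expression factors, DESeq2 1.42.0, no filter, a replicate block and leaving out libraries. The members and lists were chosen with earlier results of these data known. Fold changes are named for POLR2A, POLR3G and POLR3GL, and for called members whose call held without any 1 library, up to 5 highest and 5 lowest against vehicle at 8 h and up to 3 elsewhere, with up to 2 genes per list. The per-library values, and the fold changes of POLR2I, POLR2H and POLR1C outside that rule, were added after their values were seen.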

Additional observations from a re-analysis of the deposited data

Results flagged for a closer look

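A single library stood apart from the other 3 of its group in 3 of 59 groups of 4 looked at, for members whose values by library are given, and chance flags about 1 in 20 such groups. POLR1C had 142 CPM in replicate 3 of KB-0742 in MOLT4 and 42.7 CPM in replicate 2 of KB-0742 in RH4, and POLR1F had 50.1 CPM in replicate 1 of KB-0742 in MOLT4.

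Differences between times or lines that passed the test of the difference itself follow, on the relative scale, for the members named by the rule given with the processing. They are not all the members called, and the calls for POLR2A, named in every comparison, need not hold without 1 library. From 4 h to 8 h in MOLT4, the KI-CDK9d-32 effect differed for POLR3D (−1.77), POLR2H (−0.78) and POLR2I (−0.74), and the KB-0742 effect for POLR3GL (−1.59), POLR1F (1.56), POLR1C (1.49), POLR2B (0.94), POLR2I (−1.06) and POLR2J (−0.54). The KB-0742 effect also differed between these times for POLR3A (1.38) and POLR1C (1.28) in PSN1 and for POLR2H (−0.75) in RH4.

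Between lines at 8 h, the KI-CDK9d-32 effect of MOLT4 minus PSN1 differed for POLR2A (1.24), POLR3D (−2.28), POLR3C (−1.83) and POLR2H (−1.02), and that of MOLT4 minus RH4 for POLR2A (0.73), POLR3D (−2.52), POLR3C (−2.01) and POLR1C (−1.59). The POLR2A values were −0.70 and −1.24 with spike-in scaling. The KB-0742 effect of MOLT4 minus PSN1 differed for POLR1F (1.16), POLR1D (0.96), POLR2D (0.93) and POLR2I (−0.94), that of MOLT4 minus RH4 for POLR3K (1.08), POLR2D (0.82) and POLR2I (−0.87), and that of PSN1 minus RH4 for POLR2H (0.92) and POLR2G (−0.74).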

How the results depend on the processing

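Relative log expression size factors kept all 37 counts of called members within 1.5 times. DESeq2 gave 8 called members for KI-CDK9d-32 at 2 h in MOLT4, 5 for KI-CDK9d-32 at 4 h in PSN1, 5 for the change of the KB-0742 effect from 4 h to 8 h in RH4 and 2 for the KI-CDK9d-32 effect of PSN1 minus RH4. Without the filter on low counts, 3 were called between the compounds at 2 h in MOLT4, 1 for KI-CDK9d-32 at 2 h in PSN1, 1 for the change of the KB-0742 effect in RH4, 0 for the KI-CDK9d-32 effect of PSN1 minus RH4, and 5 and 2 for the KB-0742 effect of MOLT4 minus RH4 and PSN1 minus RH4. The cause of these differences was not tested.

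Spike-in scaling moved 27 of the 37 counts by over 1.5 times. Against vehicle, KI-CDK9d-32 then gave 0 called members at 2 h in MOLT4, 0, 9 and 20 at 2, 4 and 8 h in PSN1, and 0 and 22 at 4 and 8 h in RH4. KB-0742 gave 7 at 2 h in MOLT4, 16 at 8 h in PSN1, and 21 and 26 at 4 and 8 h in RH4. Between the compounds there were 0 at 2 h and 0 at 4 h in MOLT4, 3 and 6 at 4 and 8 h in PSN1, and 10 at 8 h in RH4. The change from 4 h to 8 h gave 23 called members for KI-CDK9d-32 in MOLT4, and for KB-0742 gave 0 in MOLT4, 0 in PSN1 and 0 in RH4. Between lines, the KI-CDK9d-32 effect gave 27, 28 and 0 for MOLT4 minus PSN1, MOLT4 minus RH4 and PSN1 minus RH4, the KB-0742 effect 0, 0 and 0, and vehicle levels 13 for MOLT4 over PSN1 and 14 for PSN1 over RH4. Leaving out the 3 MOLT4 libraries of high spike-in share was chosen after seeing the data. Between the compounds at 4 h it gave 9 with TMM and 1 with spike-in scaling. With spike-in scaling it gave 27 and 2 for the change of the KI-CDK9d-32 and the KB-0742 effect. Of 11664 genes, spike-in scaling then had 1069 higher and 958 lower between the compounds at 4 h. For the change it had 11 and 7166 with KI-CDK9d-32, and 38 and 358 with KB-0742.

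Leaving out 1 library at a time gave 1 to 3 called members for KI-CDK9d-32 at 2 h and 3 to 7 for the change of its effect in MOLT4, 1 to 2 for KI-CDK9d-32 at 2 h and 8 to 13 for KB-0742 at 4 h in PSN1, and, in RH4, 1 to 4 for KI-CDK9d-32 at 4 h, 4 to 7 between the compounds at 4 h and 1 to 5 for the change of the KB-0742 effect. Leaving out 1 replicate number gave 5 to 8 for the KI-CDK9d-32 effect of MOLT4 minus RH4, 0 each time for PSN1 minus RH4, and for the KB-0742 effect 4 to 8 and 2 to 4 for the same pairs. The labels tie the replicate numbers to no shared culture or day, and the numbers were not taken as pairs. The rule for pairing was that every same-numbered pair of libraries had deviations that correlated over 0.1. This held for 0 of 136 pairs in MOLT4, 24 of 112 in PSN1 and 10 of 60 in RH4. That rule cannot show that numbers share nothing. In MOLT4, PSN1 and RH4, 29 of 35, 30 of 32 and 22 of 24 libraries correlated best with their own number. In RH4, replicate 1 had the highest and replicate 3 the lowest spike-in share in each group. With vehicle at 4 h these were 12.2% and 7.51%. Numbers thus share something that the main tests leave out, and what it is was not tested. With a replicate block, 5 members were called for KI-CDK9d-32 at 4 h in PSN1, 7 for KI-CDK9d-32 at 4 h and 7 for the change of the KB-0742 effect in RH4, and 2 for the KI-CDK9d-32 effect of PSN1 minus RH4.

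Spike-in scaling turned the sign of many values named by the rule given with the processing. Left out below are some that did not pass the test. An example is POLR3GL for MOLT4 KI-CDK9d-32 over vehicle at 4 h (0.16 on the relative scale and −1.03 with spike-in scaling). The rest are given as log2 fold changes under spike-in scaling. The values were POLR2E −0.31, POLR2G −0.47 and POLR2L −0.39 for MOLT4 KI-CDK9d-32 over vehicle at 4 h, and POLR3G −1.89, POLR2L −1.81, POLR2G −2.02, POLR2E −1.996, POLR2F −2.19 and POLR2J −2.36 for MOLT4 KI-CDK9d-32 over vehicle at 8 h, and POLR3GL −0.020, POLR2K −0.17, POLR2F −0.22 and POLR2G −0.22 for MOLT4 KB-0742 over vehicle at 2 h. They were POLR3GL −1.18, POLR2F −0.44, POLR2L −0.43 and POLR2G −0.63 for MOLT4 KB-0742 over vehicle at 4 h, and POLR3A −0.033, POLR2B −0.082, POLR1B −0.12 and POLR1E −0.21 for MOLT4 KB-0742 over vehicle at 8 h, and POLR2L 0.017, POLR2F 0.048 and POLR2G 0.077 for MOLT4 KI-CDK9d-32 over KB-0742 at 2 h. They were POLR2A −0.48, POLR3G −0.20, POLR3GL −0.68, POLR2G −0.94 and POLR2E −0.94 for MOLT4 KI-CDK9d-32 over KB-0742 at 8 h, and POLR2F −0.21, POLR2E −0.28, POLR2J −0.27 and POLR2I −0.32 for PSN1 KI-CDK9d-32 over vehicle at 8 h, and POLR2F −0.19 and POLR2J −0.30 for PSN1 KB-0742 over vehicle at 4 h. They were POLR1C −0.14, POLR2F −0.20 and POLR2L −0.26 for PSN1 KB-0742 over vehicle at 8 h, and POLR2I −0.41, POLR2G −0.41 and POLR2E −0.44 for RH4 KI-CDK9d-32 over vehicle at 8 h, and POLR2F −0.12, POLR2E −0.17 and POLR2L −0.20 for RH4 KB-0742 over vehicle at 4 h. They were POLR2L −0.42, POLR2F −0.59, POLR3A −0.60, POLR2E −0.61 and POLR2B −0.68 for RH4 KB-0742 over vehicle at 8 h, and POLR2B 0.070, POLR2F 0.052 and POLR2E 0.25 for RH4 KI-CDK9d-32 over KB-0742 at 4 h, and POLR2A −0.70 for the 8 h effect of KI-CDK9d-32, MOLT4 minus PSN1. They were POLR2A −1.24 for the 8 h effect of KI-CDK9d-32, MOLT4 minus RH4, and POLR2A −0.67 for the vehicle level of MOLT4 over RH4. Members with few counts, such as POLR3B and POLR3D in treated MOLT4 cells, limit how exactly a fall can be sized at this depth.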
